A study of Mus musculus with 37 samples.

Results

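The genes described here encode the proteins of the cytosolic ribosome. They were taken by symbol: Rpl or Rps followed by a digit, together with Rplp0, Rplp1, Rplp2 and Rpsa, without the S6 kinases, pseudogenes and mitochondrial ribosomal proteins. Of the 18820 genes with a named probe set, 74 met the rule: 25 proteins of the small (40S) subunit, 39 of the large (60S) subunit, the 3 stalk proteins and 7 paralogs outside the canonical set. Of 77 canonical ribosomal proteins listed, 67 were present. The others were not analysed here. Each gene was read from the probe set with the highest mean, as a log2 intensity, and levels were compared for one gene between samples, never between genes.

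The RNA came from the intact inguinal mammary gland of female BALB/c (BALB/cJ) mice whose opposite inguinal gland had been cleared, sham mice included. At 10 weeks of age the mice received 100 cGy of gamma rays, 10 cGy of silicon ions, 30 cGy of silicon ions (Si, 350 MeV/amu, a densely ionizing radiation) or sham treatment. Glands were collected after 1, 4 and 12 weeks, with 3 arrays in each of the 12 groups except sham week 4, which had 4, for a total of 37. Tissue was taken where the mice had been irradiated in week 1 and elsewhere, after transport, in weeks 4 and 12, so that week, age and place cannot be told apart. The labels do not say that replicates were different animals, and the p-values therefore rest on differences among arrays that may be partly technical.

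A ribosome holds a single copy of most of these proteins, and cells make the proteins of both subunits together with ribosomal RNA. Many of their mRNAs begin with a run of pyrimidines, the terminal oligopyrimidine tract, through which mTOR signalling controls their translation. Free Rpl5 and Rpl11 bind Mdm2 and so link ribosome assembly to p53, the main transcription factor of the DNA damage response. In the mammary gland, ribosome production goes up when the epithelium grows in pregnancy, while most of a virgin gland is fat tissue.

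The start sites of 14 genes that recur below are shown for their pyrimidine runs. They include the 5 most like the others across arrays (Rpl23, Rps18, Rpl35, Rps7, Rps23). The 5 with the largest rise at week 12 (Rps27l, Rps26, Rpl5, Rpl12, Rpl7l1) follow. Next are the 2 with the largest fall among the genes called at week 12 (Rplp2, Rps25). The last are the 2 canonical genes least like the others (Rpl39, Rpl41). Each sequence covers 15 bases on either side of the start in RefSeq (GRCm38.p6), 5′ to 3′ on the gene's strand, and capitals mark the longest run of C and T.
Rpl23 (chr11:97782425-97782454, minus strand): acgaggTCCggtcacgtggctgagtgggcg
Rps18 (chr17:33955651-33955680, minus strand): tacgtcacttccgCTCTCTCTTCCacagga
Rpl35 (chr2:39005117-39005146, minus strand): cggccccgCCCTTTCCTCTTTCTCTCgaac
Rps7 (chr12:28635939-28635968, minus strand): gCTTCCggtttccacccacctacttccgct
Rps23 (chr13:90923107-90923136, plus strand): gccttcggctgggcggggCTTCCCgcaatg
Rps27l (chr9:66946071-66946100, plus strand): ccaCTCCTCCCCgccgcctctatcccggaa
Rps26 (chr10:128626492-128626521, minus strand): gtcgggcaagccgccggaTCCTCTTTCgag
Rpl5 (chr5:107900513-107900542, plus strand): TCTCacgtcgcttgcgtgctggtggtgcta
Rpl12 (chr2:32961697-32961726, plus strand): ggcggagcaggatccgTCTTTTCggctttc
Rpl7l1 (chr17:46782642-46782671, minus strand): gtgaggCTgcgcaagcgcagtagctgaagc
Rplp2 (chr7:141447636-141447665, plus strand): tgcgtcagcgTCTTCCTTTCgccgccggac
Rps25 (chr9:44407699-44407728, plus strand): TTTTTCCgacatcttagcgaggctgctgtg
Rpl39 (chrX:37085208-37085237, minus strand): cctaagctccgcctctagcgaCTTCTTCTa
Rpl41 (chr10:128549154-128549183, minus strand): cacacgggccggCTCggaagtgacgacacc

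A run of at least 8 pyrimidines lay in this window in 24 of the 60 genes of the group with an entry in the promoter table (40%), against 11.9% of all 27025 genes of the table. Among the genes most like the others the run was 18 bases in Rpl35 and 11 in Rps18, but 6 in Rps23, 5 in Rps7 and 3 in Rpl23. It was 9 in Rps26 and Rps27l, 7 in Rpl12, 4 in Rpl5 and 2 in Rpl7l1, which rose most. It was 10 in Rplp2 and 7 in Rps25, which fell, and 8 in Rpl39 and 3 in Rpl41. The runs of Rpl5 and Rps25 begin at the first base shown, so they may extend beyond the window. In the 300 bases from 250 before to 50 after the start, the ETS core motif CCGGAAG was present on either strand in 25 of the 60 (41.7%) against 9.12% of all genes, and the YY1 motif AAGATGG in 8 (13.3%) against 6.48%. The motifs can overlap by their shared letters AAG and were counted separately. A match describes these letters only.

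Markers of the labelled tissue were present: the white adipocyte genes (13 of 14 listed had a named probe set, for example Adipoq and Fabp4) had mean log2 levels from 8.42 to 12.26, and the luminal keratin Krt8 ranged from 9.65 to 11.63 over the arrays. Members spanned mean log2 levels from 2.81 to 12.6. Of the 74, 73 passed the filter on low values, and Rpl10l, a testis paralog with a mean of 2.81, did not. The 74 genes had 385 probe sets of their symbol, 41 of them for Rpl21, and 18 genes had 1. Where there were several, the first 2 had a median correlation of 0.966. Ribosomal protein genes have many processed pseudogenes, and probes cannot tell near-identical copies apart, so the values of genes with many probe sets are uncertain in that respect. Where probe sets of a gene agree below, they are not independent readings. Correlations with the other arrays were lowest for replicate 3 of the week 1 sham glands (median 0.970) and for replicate 1 of the week 4 sham glands (0.971).

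**Figure D1:**
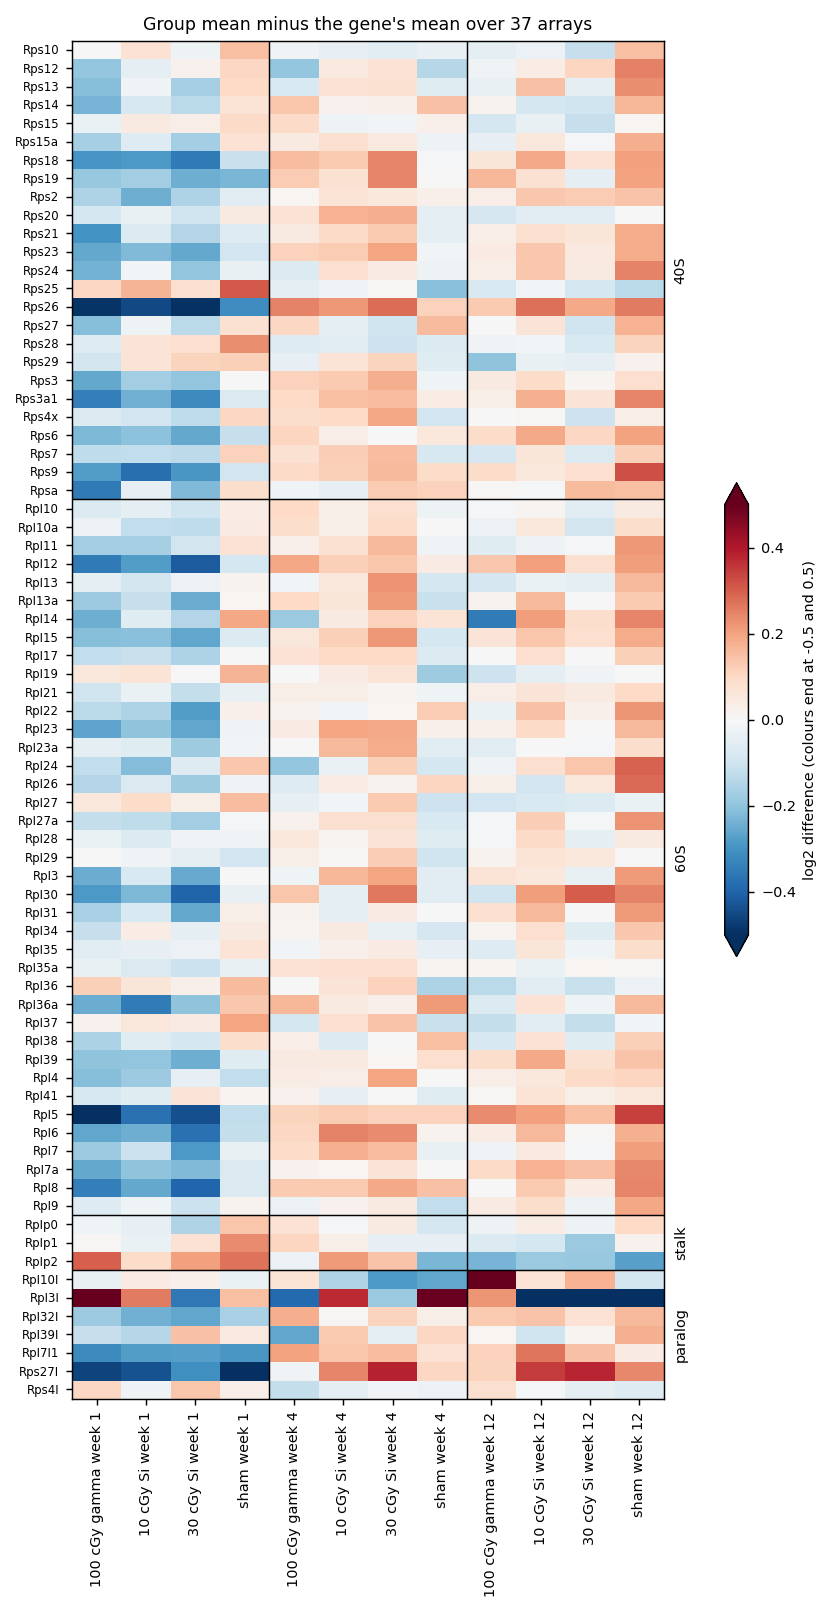
Mean log2 intensity of each of the 12 groups minus the gene's mean over 37 arrays, for the 74 genes ordered by role (rows) and the groups ordered by week and treatment (columns). Most rows are blue in the 3 irradiated groups of week 1 and pale or red later, while Rps25 and Rplp2 run the other way and Rpl3l varies without regard to the other genes.

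The differences that passed a test lay between weeks. Averaged over the 4 treatments, 26 of the 73 tested genes rose at week 4 relative to week 1 and 1 fell, and 30 rose and 5 fell at week 12 relative to week 1 (limma, adjusted p under 0.05 over all genes tested). The shares of all 13174 genes called were 25.8% (11% higher and 14.8% lower) for week 4 and 35.5% (15.2% higher and 20.4% lower) for week 12. The median difference of the members was 0.13 in both, while the median of all genes was -0.0034 and -0.0186. Of the genes called, 24 were called in both comparisons with the same sign, which is 88.9% of the 27 calls of week 4 and 68.6% of the 35 calls of week 12. Both comparisons use the same arrays of week 1. Between weeks 12 and 4, 0 members were called, against 1.64% of all genes (0.698% higher and 0.941% lower), and 4 members had an unadjusted p under 0.05. The median difference there was 0.0068.

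Among the small subunit genes, 9 of 25 rose and 1 fell at week 4, and 11 rose and 1 fell at week 12. Rps26, a protein at the mRNA exit of the 40S subunit, had the largest difference of this class. In week 1 its log2 intensity was 11.21, 11.18 and 10.97 in the gamma glands, 11.32, 11.01 and 11.16 in the 10 cGy Si glands, 11.23, 11.06 and 11.06 in the 30 cGy Si glands, and 11.38, 11.34 and 11.19 in the sham glands. In week 4 it was 11.85, 11.92 and 11.81 in the gamma glands, 11.89, 11.83 and 11.77 in the 10 cGy Si glands, 11.92, 11.86 and 11.90 in the 30 cGy Si glands, and 11.50, 11.76, 11.71 and 11.93 in the sham glands. In week 12 it was 11.59, 11.76 and 11.87 in the gamma glands, 11.86, 11.99 and 11.82 in the 10 cGy Si glands, 11.86, 11.81 and 11.73 in the 30 cGy Si glands, and 11.99, 11.91 and 11.72 in the sham glands. Every array of week 4 and of week 12 was above every array of week 1, whatever the treatment. The difference was 0.65 ± 0.05 (SE) on the log2 scale in both weeks, a 1.57-fold rise (limma adjusted p = 3.68e-10 at week 4 and 3.04e-10 at week 12). All 3 of its probe sets agreed, with differences between 0.65 and 0.67.

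Rps6, the substrate of the S6 kinases, had a lowest, median and highest log2 intensity of 12.54, 12.64 and 12.77 in week 4 and of 12.64, 12.73 and 12.87 in week 12, against 12.29, 12.37 and 12.65 in week 1. It rose by 0.25 ± 0.04 and 0.35 ± 0.04 (limma adjusted p = 1.21e-05 and 7.41e-08). Only the highest array of week 1, a sham gland at 12.65, reached the later ranges. Rps18, Rps9 and Rps3a1, all core proteins of the 40S subunit, rose by 0.39, 0.38 and 0.35 at week 4 and by 0.39, 0.40 and 0.37 at week 12. The 2 probe sets of Rps9 disagreed, since the other one had differences of -0.00069 and 0.0081.

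Rps25, a 40S protein needed for initiation on several viral internal ribosome entry sites, was the small subunit gene that fell. Its lowest, median and highest log2 intensity was 9.15, 9.94 and 10.07 in week 4 and 9.59, 9.89 and 10.12 in week 12, against 9.88, 10.15 and 10.36 in week 1. The ranges overlapped, and the 9.15 came from sham week 4 replicate 1, one of the 2 arrays least like the rest. The differences were -0.23 ± 0.08 and -0.24 ± 0.08 (limma adjusted p = 0.0294 and 0.0196), and all 6 of its probe sets were below 0 in both weeks.

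Among the large subunit genes, 14 of 39 rose and 0 fell at week 4, and 16 rose and 2 fell (Rpl36 and Rpl27) at week 12. Rpl5, which carries the 5S ribosomal RNA and binds Mdm2, had a lowest, median and highest log2 intensity of 10.26, 10.43 and 10.66 in week 4 and of 10.25, 10.56 and 10.95 in week 12, against 9.65, 9.91 and 10.46 in week 1. Of the week 1 arrays, sham replicates 1 and 2, at 10.30 and 10.46, lay inside the later ranges. It rose by 0.48 ± 0.07 and 0.60 ± 0.07 (limma adjusted p = 9.56e-06 and 2.92e-07), with all 5 probe sets above 0. Its partner Rpl11 rose by 0.15 ± 0.05 at week 4 (limma adjusted p = 0.0372) and differed by 0.12 ± 0.05 at week 12 (adjusted p = 0.0836).

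Rpl12, a protein at the base of the stalk, had a log2 intensity in week 1 of 11.41, 11.36 and 11.25 in the gamma glands, 11.57, 11.32 and 11.36 in the 10 cGy Si glands, 11.37, 11.20 and 11.27 in the 30 cGy Si glands, and 11.58, 11.62 and 11.62 in the sham glands. Its lowest, median and highest values were 11.38, 11.86 and 11.96 in week 4, and its median and highest 11.84 and 12.01 in week 12. The week 12 range did not overlap that of week 1, and the week 4 range overlapped it through sham week 4 replicate 1 alone. Its differences were 0.41 ± 0.05 and 0.44 ± 0.05 (limma adjusted p = 1.32e-06 and 2.6e-07). Rpl7a rose by 0.21 ± 0.04 and 0.35 ± 0.04 (limma adjusted p = 0.000563 and 6.24e-07). Rpl8, Rpl6 and Rpl30, further proteins of the 60S subunit, rose by 0.42, 0.40 and 0.31 at week 4 and by 0.37, 0.35 and 0.40 at week 12. Rpl36 and Rpl27 fell by 0.17 ± 0.06 and 0.15 ± 0.06 at week 12 (limma adjusted p = 0.025 and 0.0332), and all of their 10 and 4 probe sets were below 0 in both weeks.

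Of the 3 stalk proteins, which recruit the GTPases of translation, 0 rose in either week, and 2 fell at week 12. Rplp2 had a lowest, median and highest log2 intensity of 4.29, 5.19 and 5.59 in week 4 and of 4.52, 4.95 and 5.10 in week 12, against 5.06, 5.33 and 5.72 in week 1. Only 1 array of week 1, at 5.06, lay below the highest of week 12. Rplp2 fell by 0.44 ± 0.10 at week 12 (limma adjusted p = 0.000848), and differed by -0.19 ± 0.10 at week 4 (adjusted p = 0.145). It had only 1 probe set, with a low mean log2 intensity of 5.13, so its fall could not be compared between probe sets. Rplp1 fell by 0.15 ± 0.06 at week 12 (limma adjusted p = 0.0484), with 1 of its 3 probe sets above 0. Rplp0, to which both of them bind, differed by 0.02 ± 0.06 and 0.04 ± 0.06 (limma adjusted p = 0.811 and 0.653).

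Of the 6 paralogs tested, 3 rose in both weeks. Rps27l, a paralog of Rps27 that p53 induces, had a log2 intensity in week 1 of 8.53, 8.34 and 8.49 in the gamma glands, 8.44, 8.56 and 8.45 in the 10 cGy Si glands, 8.76, 8.58 and 8.50 in the 30 cGy Si glands, and 8.47, 8.33 and 8.08 in the sham glands. Its range was 8.69 to 9.49 in week 4 and 8.68 to 9.44 in week 12, and both overlapped week 1 through its highest array, a 30 cGy Si gland at 8.76. It rose by 0.64 ± 0.08 and 0.73 ± 0.09 (limma adjusted p = 2.49e-06 and 2.26e-07). The parent gene Rps27 differed by 0.10 ± 0.06 and 0.11 ± 0.06 (limma adjusted p = 0.248 and 0.19).

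Rpl7l1, a paralog of Rpl7 linked to the processing of 60S precursors, had a lowest, median and highest log2 intensity of 8.30, 8.54 and 8.66 in week 4 and of 8.30, 8.54 and 8.69 in week 12, against 8.0, 8.09 and 8.18 in week 1. Neither later range overlapped week 1. The difference was 0.43 ± 0.04 in both weeks (limma adjusted p = 8.39e-09 and 7.36e-09). Rpl32l rose by 0.29 ± 0.05 and 0.34 ± 0.05 (limma adjusted p = 0.00012 and 1.39e-05). Over all members, the ranges of Rps26 and Rpl7l1 did not overlap between weeks 4 and 1, and those of Rps26, Rpl7l1 and Rpl12 did not overlap between weeks 12 and 1, as was the case for 1.45% and 2.75% of all genes.

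**Figure D2:**
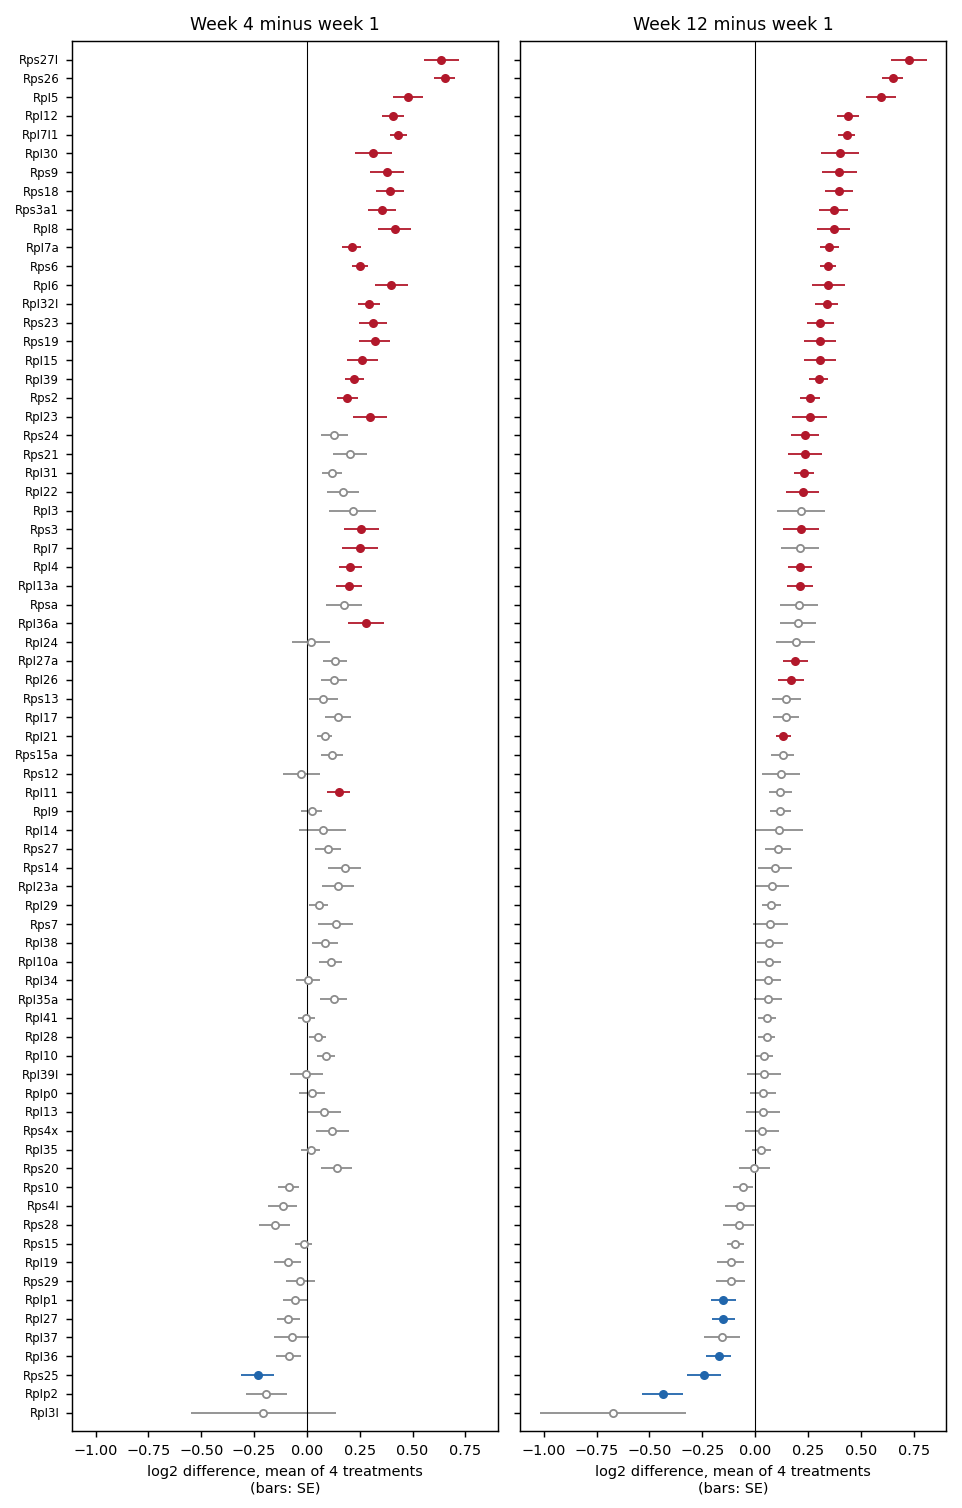
Log2 difference from week 1, as the mean of the 4 treatments with its SE, at week 4 (left) and week 12 (right) for the 73 genes tested, ordered by the week 12 difference. Filled points passed the test (red higher, blue lower) and open points did not. Rps27l, Rps26 and Rpl5 lead in both panels. Of the genes called lower at week 12, Rplp2 and Rps25 are lowest, while Rpl3l, not called, lies lower (-0.67).

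Each treatment was also taken alone, as a setting added after the data had been seen. At week 4, the median difference of the 73 genes from week 1 was 0.17 in the gamma glands, 0.15 in the 10 cGy Si glands, 0.24 in the 30 cGy Si glands and -0.02 in the sham glands. The numbers above 0 were 61, 63, 63 and 33. The numbers called were 5, 4, 14 and 4, against 3.14%, 2.69%, 4.24% and 5.88% of all genes. In the sham glands Rpl7l1, Rps27l and Rps26 rose and Rps25 fell. Rps26 and Rpl7l1 were called in all 4 treatments, and Rps27l and Rpl12 in 3. Rps26 differed by 0.74 in gamma, 0.67 in 10 cGy Si, 0.78 in 30 cGy Si and 0.43 in sham glands, and Rps27l by 0.45, 0.68, 0.69 and 0.73 in the same order. At week 12 the medians were 0.13, 0.15, 0.16 and 0.13, and the numbers called were 7, 12, 10 and 5, against 5.74%, 9.09%, 6.95% and 5.12% of all genes. Rps26, Rps27l, Rpl7l1, Rps6 and Rpl7a were called in all 4 treatments. Whether the effects of radiation differed between weeks was tested directly by a moderated F test of 6 differences. It called 0 members, and 0 had an unadjusted p under 0.05, against 0% and 3.96% of all genes. The smallest p was 0.0502, for Rpl13a.

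**Figure D3:**
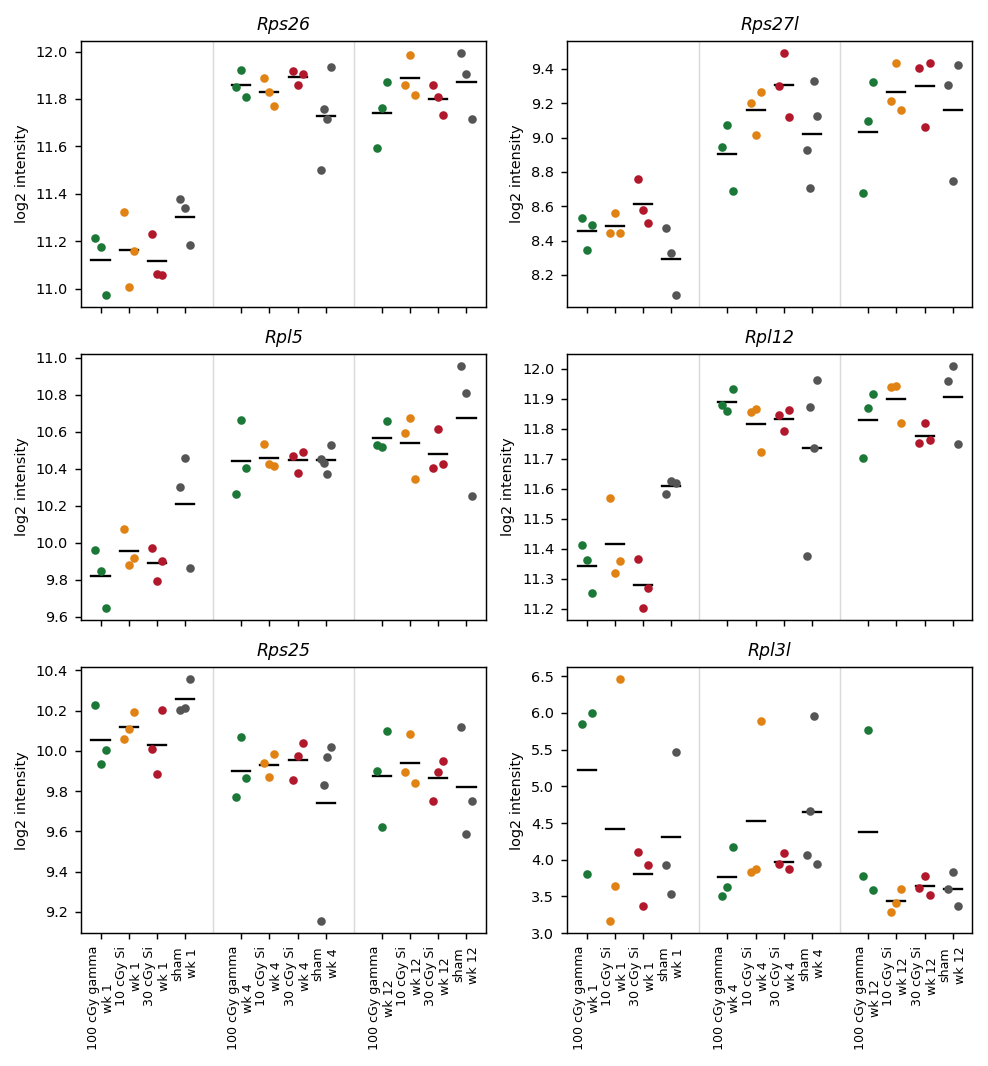
Log2 intensity of 6 genes in each of the 37 arrays (points) with the group mean (line), by treatment and week. Rps26 and Rps27l are higher in weeks 4 and 12 in every treatment, Rpl5 and Rpl12 start higher in the sham glands of week 1 than in the irradiated ones, Rps25 has its lowest value in 1 sham gland of week 4, and Rpl3l is above 5 in 7 arrays of 6 groups.

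As list averages, white adipocyte and endothelial markers moved in the opposite direction, though not every marker did. The mean deviation of the adipocyte markers (each gene against its own mean over 37 arrays, averaged) ranged from -0.38 to 0.34 in week 4 and from -0.29 to 0.10 in week 12, against 0.02 to 0.35 in week 1. Of 13 markers tested, 6 fell and 0 rose in each week. Plin1, which coats lipid droplets, averaged 10.92 in week 4 and 10.96 in week 12, against 11.47 in week 1. Adipoq stayed level, with 11.45 and 11.42 against 11.44, and Retn averaged 12.18 and 12.33 against 12.27. The mean deviation of the endothelial markers was -0.07 in week 4 and -0.07 in week 12, against 0.15 in week 1, with ranges of -0.23 to 0.14 and -0.28 to 0.21, against 0.02 to 0.33. Of 10 endothelial markers, 5 fell and 0 rose at week 4, and 5 fell and 1 rose at week 12. Cldn5, a tight junction protein of endothelium, averaged 8.25 and 8.46, against 8.89 in week 1. Endothelial markers were not among the covariates, and their part in the week differences was not tested. Of 12 macrophage markers, 4 rose at week 4 and 2 at week 12, and 0 fell. The luminal epithelial markers had ranges of -0.41 to 0.48 and -0.75 to 0.58, against -0.71 to 0.62 in week 1, with 1 of 14 rising and 1 falling at week 4 and 3 rising and 1 falling at week 12. In such bulk samples, fewer cells of a type and less RNA per cell cannot be told apart. With the levels of lymphocyte, muscle, epithelial and brown adipocyte markers as covariates, the planned setting, 34 members rose and 1 fell at week 4. At week 12, 34 rose and 2 fell, and the medians were 0.16 and 0.15. The share of all genes called in that setting is not given here. White adipocyte markers were added to these covariates after the data had been seen. In this second fit 8 members were called at week 4 and 13 at week 12, against 6.25% and 8.61% of all genes. Its medians were 0.04 and 0.01. The 7 genes that rose in that fit at week 4 were Rpl12, Rpl32l, Rpl7l1, Rps18, Rps26, Rps27l and Rps6. At week 12 Rpl12, Rpl21, Rpl32l, Rpl5, Rpl7a, Rpl7l1, Rps26, Rps27l and Rps6 rose. Rps28 fell in both, with Rpl37, Rplp1 and Rps29 at week 12. In that fit Rps26 differed by 0.62 in both weeks, and Rps27l by 0.67 and 0.75.

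Within weeks, irradiated glands were set against sham glands, the comparison for which the study was designed. No member was called in any of the 9 comparisons, and the counts below use an unadjusted p under 0.05. The comparisons of a week share their sham arrays. Most members also varied together across arrays, as described below, so numbers above 0 do not count separate observations. Within weeks, the medians of all genes are given for week 1 only. In week 1, where most members were lower in the irradiated glands, 6, 7 and 7 of the 73 genes were above 0 after gamma, 10 cGy Si and 30 cGy Si, with median differences of -0.16, -0.12 and -0.17, while the medians of all genes lay between 0.0076 and 0.0278. For 100 cGy gamma, 0 members were called against 0.0228% of all genes, and 9 of 73 were lower at an unadjusted p under 0.05 against 3.04%. For 10 cGy Si the count was 0 against 0.0835%, with 3 lower against 1.83%. For 30 cGy Si it was 0 against 0.0228%, with 6 lower against 3.54%. With array weights, 3 members (Rpl12, Rpl31 and Rpl5) were called lower after 30 cGy Si in week 1. The share of all genes called with these weights is not given here, so the 3 calls cannot be set against it.

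The genes with the smallest p in week 1 were Rpl5 (-0.39 ± 0.14, adjusted p = 0.492) and Rpl12 (-0.27 ± 0.10, adjusted p = 0.53) after gamma, Rpl36a (-0.49 ± 0.17, adjusted p = 0.572) and Rplp1 (-0.27 ± 0.12, adjusted p = 0.846) after 10 cGy Si, and Rpl12 (-0.33 ± 0.10, adjusted p = 0.289) and Rpl31 (-0.28 ± 0.09, adjusted p = 0.299) after 30 cGy Si, all by limma. For Rpl12 the highest irradiated array of week 1, at 11.57, lay just below the lowest sham array, at 11.58. For Rpl5 the sham gland at 9.86 lay among the irradiated ones, and the other sham glands, at 10.30 and 10.46, above all of them. On the higher side the smallest p belonged to Rpl3l (0.91 ± 0.69, limma adjusted p = 0.807) and Rpl29 (0.09 ± 0.09) after gamma, to Rps27l and Rpl29 (0.08 ± 0.09) after 10 cGy Si, and to Rps27l and Rps4l (0.11 ± 0.14) after 30 cGy Si. Rps27l differed by 0.16 after gamma, 0.19 after 10 cGy Si and 0.32 after 30 cGy Si (limma adjusted p = 0.855, 0.989 and 0.454). Rpsa, the 40S protein also known as the laminin receptor, differed by -0.44 after gamma, by -0.13 after 10 cGy Si and by -0.31 after 30 cGy Si (limma adjusted p = 0.536, 0.999 and 0.471). The white adipocyte score of these irradiated glands ranged from 0.02 to 0.35, against 0.02 to 0.08 in the sham glands of week 1. The week 1 differences in the fit with white adipocyte markers among the covariates are not given here. The part of this score in the difference is therefore left undescribed.

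In week 4 most members lay on the other side. Of the 73, 53, 56 and 59 were above 0 after gamma, 10 cGy Si and 30 cGy Si, with medians of 0.06, 0.08 and 0.13. Leaving out single arrays moved the gamma median between -0.0044 and 0.12. With white adipocyte markers among the covariates, chosen after the data had been seen, the 30 cGy Si median was 0.00918. The medians of all genes in week 4 are not given here, so this side cannot be called particular to the members. For 100 cGy gamma 0 were called against 0% of all genes, and 0 were higher at an unadjusted p under 0.05 against 3.66%. For 10 cGy Si 0 were called against 0%, with 1 higher (Rplp2, 0.44 ± 0.18) against 2.4%. For 30 cGy Si 0 were called against 0%, with 7 higher against 6.1%. Rpl39l had the smallest p after gamma, with -0.36 ± 0.15 (limma adjusted p = 0.798). The 7 after 30 cGy Si were led by Rpl13a (0.32 ± 0.12, limma adjusted p = 0.503) and Rpl29 (0.22 ± 0.08, adjusted p = 0.533). Rpl13a, a 60S protein, had 10.57, 10.61 and 10.73 in the 30 cGy Si glands, against 10.05, 10.35, 10.28 and 10.59 in the sham glands. The ranges overlapped through 1 sham gland, and the lowest sham value came from replicate 1, one of the 2 arrays least like the rest.

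In week 12 the members were again mostly lower in the irradiated glands. After gamma, 10 cGy Si and 30 cGy Si, 7, 12 and 10 of the 73 were above 0, with medians of -0.13, -0.05 and -0.13. For week 12, too, the medians of all genes are not given here. For 100 cGy gamma 0 were called against 0% of all genes, and 4 were lower at an unadjusted p under 0.05 against 1.16%. For 10 cGy Si 0 were called against 0%, with 2 lower against 2.18%. For 30 cGy Si 0 were called against 0%, with 5 lower against 2.44%. Rpl14, a 60S protein, had the smallest p after gamma, with 5.38, 5.60 and 6.52 in the gamma glands, against 6.69, 6.32 and 6.28 in the sham glands. The ranges overlapped through 1 gamma gland, and the difference was -0.60 ± 0.23 (limma adjusted p = 0.9998). Rpl26 differed by -0.38 ± 0.12 and Rpl7l1 by 0.23 ± 0.08 after 10 cGy Si (limma adjusted p = 0.9999 each), and Rps10 by -0.27 ± 0.10 and Rpl31 by -0.21 ± 0.09 after 30 cGy Si (limma adjusted p = 0.906 each). Rpl11 differed by -0.28, -0.24 and -0.23 (limma adjusted p = 0.9998, 0.9999 and 0.906). Its values were 8.94, 9.05 and 9.00 in the gamma glands, 8.99, 9.21 and 8.87 in the 10 cGy Si glands and 9.06, 9.07 and 9.00 in the 30 cGy Si glands, against 9.47, 9.24 and 9.10 in the sham glands. The sham gland at 9.47 was replicate 1, which had the highest mean deviation of the 67 canonical genes of all arrays, at 0.39. Without sham replicate 1 of week 12 the 3 medians were -0.01, 0.07 and -0.0025, and without sham replicate 3 they were -0.25, -0.16 and -0.25.

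**Figure D4:**
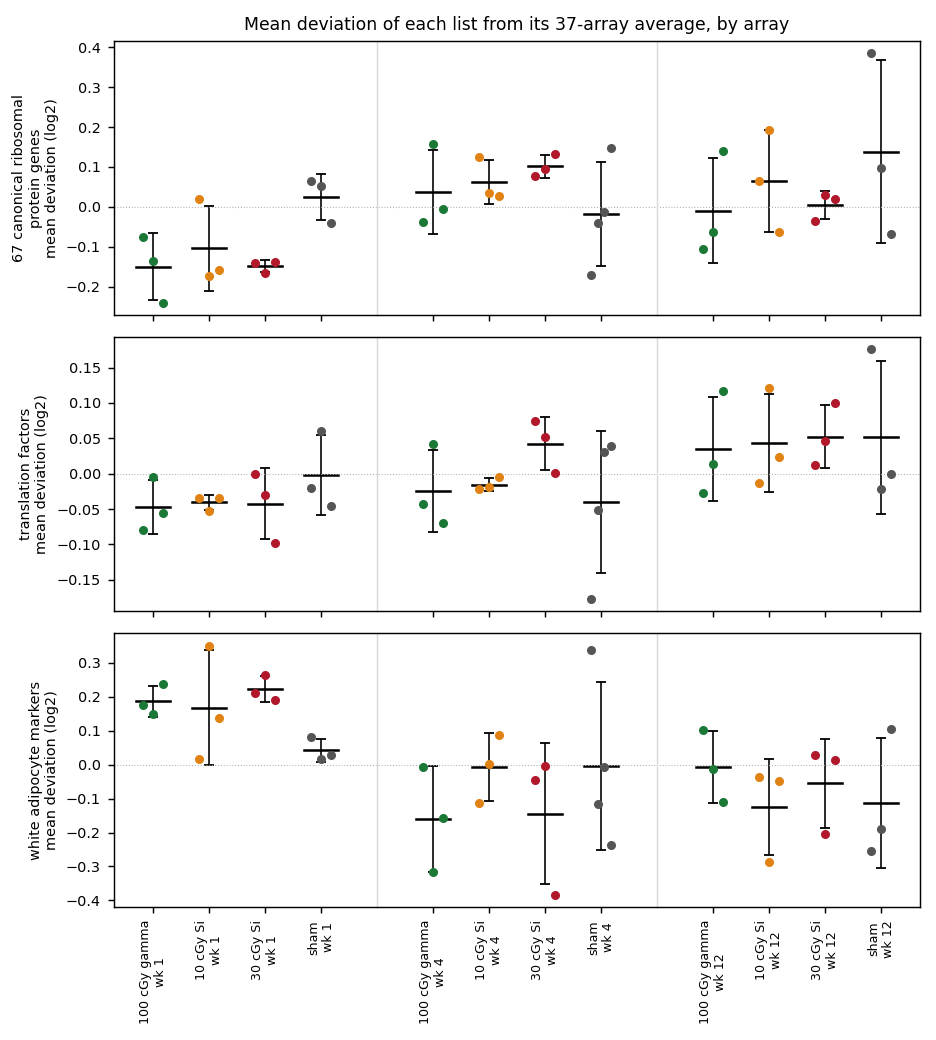
Mean deviation of the 67 canonical ribosomal protein genes (top), the translation factors (middle) and the white adipocyte markers (bottom) from their averages over 37 arrays, on the log2 scale, with points for arrays and bars for the group mean and SD. The ribosomal protein genes are lowest and the adipocyte markers highest in the irradiated glands of week 1, and the sham glands of week 12 run from -0.07 to 0.39 in the top panel.

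Over the mean of the 3 weeks, 0 members were called against 0%, 0% and 0.0304% of all genes after gamma, 10 cGy Si and 30 cGy Si, and 11, 3 and 10 were lower at an unadjusted p under 0.05 against 1.5%, 1.57% and 4.51%. The medians were -0.06, -0.02 and -0.06. Rpl14 had the smallest p after gamma, with -0.43 ± 0.13 (adjusted p = 0.773), Rpl36a after 10 cGy Si, with -0.25 ± 0.10 (adjusted p = 0.644), and Rps27 after 30 cGy Si, with -0.25 ± 0.07 (adjusted p = 0.177), all by limma. Rps27 had 7.95 ± 0.08, 7.99 ± 0.10 and 7.99 ± 0.08 in the 30 cGy Si glands of weeks 1, 4 and 12 (SD, n = 3 each), against 8.16 ± 0.10, 8.24 ± 0.16 and 8.26 ± 0.21 in the sham glands (n = 3, 4 and 3). Without sham week 12 replicate 3, where the share of all genes called is not given here, Rps27 was called. Its p53-induced paralog Rps27l differed the other way after 30 cGy Si, by 0.25 ± 0.10 (limma adjusted p = 0.256), and by -0.03 after gamma and 0.15 after 10 cGy Si (adjusted p = 0.9997 and 0.849). Rpl5 differed by -0.17, -0.12 and -0.17 and Rpl11 by -0.16, -0.13 and -0.07 after gamma, 10 cGy Si and 30 cGy Si, with adjusted p between 0.324 and 0.924.

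The silicon doses and the kinds of radiation were also set against each other over the 3 weeks. For 30 cGy Si against 10 cGy Si, 0 members were called against 0.0228% of all genes and 0 had an unadjusted p under 0.05 against 6.51%. For 30 cGy Si against 100 cGy gamma, 0 were called against 0.00759% and 4 had an unadjusted p under 0.05 against 13.5%. These 4 were Rps27l (0.28 ± 0.10, limma adjusted p = 0.251), Rpl14, Rps29 and Rpl4, all higher after 30 cGy Si. The median differences were -0.0227 and 0.0159.

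Across arrays of the same group, most of these genes varied together. As a description over 37 arrays and deviations from the 12 group means, the 67 canonical genes had a median correlation of 0.755 with the mean of the other canonical genes, and 40 were above 0.7. All points share the arrays and their normalization. The genes most like the others were Rpl23 (0.93), Rps18 (0.92), Rpl35 (0.92), Rps7 (0.92) and Rps23 (0.91). The least alike were Rpl39 (-0.25), which lies in the exit tunnel, and Rpl41 (-0.13), the smallest ribosomal protein, with the paralogs Rpl3l (-0.24), Rpl39l (-0.18) and Rps4l (-0.16). Rps6 and Rps2 were also near 0, at -0.03 and 0.03, and both rose between weeks. The SD within groups was smallest for Rpl21, Rps6 and Rpl28 (0.0637, 0.0734 and 0.0824) and largest for Rpl3l, Rpl10l and Rpl3 (0.904, 0.351 and 0.288). Of the paralogs, Rps27l stood at 0.31 and Rpl7l1 at 0.26.

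The ribosomal score, the mean deviation of the 67 canonical genes, had an SD within groups of 0.109. Within groups its correlation with the translation factors was 0.71 and with ribosome biogenesis factors 0.49, as a description over 37 arrays. With the white adipocyte markers it was -0.75 and with the brown adipocyte markers -0.67, against 0.64 for luminal and 0.59 for basal epithelial markers. With lymphocyte, skeletal muscle and mitochondrial ribosomal protein genes it was -0.06, -0.05 and -0.30. The 5 other genes most like the members were Trim28 (0.92), Eef1b2 (0.89), Znfx1 (0.82), Scarna17 (0.81) and Dsg2 (0.81). Fau, which encodes the 40S protein S30 under a symbol outside the rule, stood at 0.78.

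**Figure D5:**
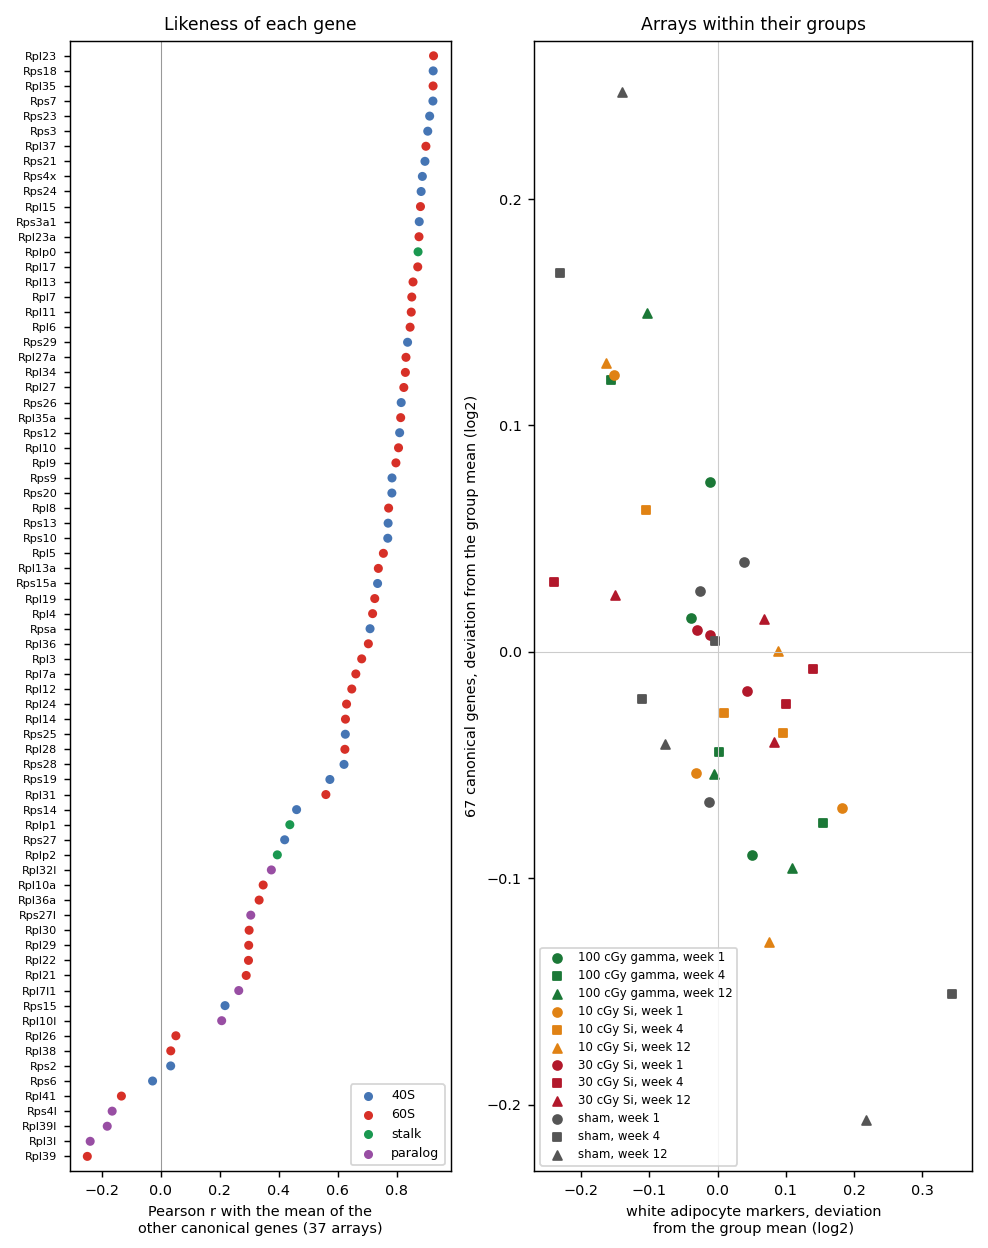
Left, Pearson correlation of each of the 74 genes with the mean of the other canonical genes over 37 arrays, after subtraction of the group means, coloured by role. Right, the deviation of the 67 canonical genes against that of the white adipocyte markers in the same 37 arrays; arrays with more adipocyte signal than their group lie lower (r = -0.75).

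Rpl3l, the paralog of Rpl3 of striated muscle, followed another pattern. Its log2 intensity was between 5.47 and 6.46 in 7 arrays and between 3.16 and 4.66 in the other 30. The 7 were gamma week 1 replicates 1 and 3 (5.85 and 5.99), 10 cGy Si week 1 replicate 3 (6.46), sham week 1 replicate 3 (5.47), 10 cGy Si week 4 replicate 3 (5.88), sham week 4 replicate 3 (5.95) and gamma week 12 replicate 2 (5.77). They were also the 7 arrays with the highest skeletal muscle score, from 2.11 to 2.86, against -1.99 to 1.66 in the other 30. Rpl3 itself differed by 0.22 ± 0.11 at both week 4 and week 12 from week 1 (limma adjusted p = 0.161 and 0.135). Rpl39l, expressed mainly in testis, stayed between 3.80 and 4.69 in all weeks and differed by -0.0026 at week 4 and 0.04 at week 12 (limma adjusted p = 0.986 and 0.732), whereas Rpl39 rose by 0.22 ± 0.05 and 0.30 ± 0.05 (adjusted p = 0.000535 and 1.16e-05).

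Other genes of ribosome production were read from lists. Of 66 biogenesis factors, 20 rose and 3 fell at week 4, and 27 rose and 4 fell at week 12, relative to week 1, with medians of 0.10 and 0.12. Brix1, which assembles the 60S precursor, rose by 0.45 ± 0.06 and 0.60 ± 0.06 (limma adjusted p = 2.78e-06 and 2.94e-08). Of 37 translation factors, 7 rose and 5 fell at week 4, and 12 rose and 4 fell at week 12. Eif3m, a subunit of initiation factor 3, rose by 0.51 and 0.49, and Eif5a, which helps ribosomes past stalling sequences, fell by 0.76 and 0.68. Of 17 regulators, 3 rose and 5 fell at week 4, and 2 rose and 10 fell at week 12. Myc, which drives transcription of ribosome genes, rose by 0.49 ± 0.12 and 0.63 ± 0.13 (limma adjusted p = 0.00365 and 0.00027), and the S6 kinase gene Rps6kb2 fell by 0.52 and 0.51. Fau fell by 0.17 and 0.28. Of 74 mitochondrial ribosomal protein genes, 17 rose and 2 fell at week 4 and 25 rose and 2 fell at week 12, led by Mrpl50 (0.51 and 0.70). The shares of all genes called in these comparisons are those given above.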

How the data were processed

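Total RNA was measured on 37 Affymetrix whole-transcript arrays. The deposited log2 intensities, 1 per probe set, came from RMA as run in oligo, according to the authors (per the submitters' processing notes). Neither versions nor scan dates are given in the sources used here. Precision is limited by 3 or 4 arrays per group, and an array intensity has no read depth. A single gene symbol was attached to 21218 of the 35556 probe sets, and each of the 18820 genes was read from its probe set with the highest mean. Genes with a mean above the 30th percentile (log2 4.04) were tested, 13174 in all. One limma model (limma 3.58.1, R 4.3.3) fitted 12 group means, with 25 residual degrees of freedom, empirical Bayes variances and Benjamini-Hochberg adjustment over all genes tested, and it was checked on simulated data. Members, lists and tests were chosen with earlier results of these data known. The genes named were, in each comparison, up to 10 called members per direction, or else the 2 per direction with the smallest p; paralogs with their parents, Rpl5, Rpl11, Rps6, Rpsa and the stalk proteins; the 3 with the largest and smallest SD within groups; and the 5 most and least like the rest. Not all of these are printed, and levels were not ranked between probe sets. Plin1, Cldn5, Adipoq, Retn, Emcn, Tek, Fabp4 and Krt8 were chosen as markers after their values were seen. Same-numbered replicates did not deviate together (median correlations of -0.02, -0.03 and 0.10 for numbers 1 to 3), so numbers were not taken as pairs. Alternatives changed the filter, probe sets, normalization, variance model, array weights, replicate block, tissue covariates and the arrays included.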

Additional observations from a re-analysis of the deposited data

Results flagged for a closer look

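Rpl29 had a log2 intensity of 11.03 in sham week 4 replicate 1, against 11.38, 11.42 and 11.40 in the other sham glands of that week. The gap was 0.878 of the group's range, above Dixon's critical value for 4 samples. Only sham week 4 has enough arrays for this comparison, so 37 measures (the mean deviation and single genes) were tested on the same 4 arrays, and 1 was exceeded. Chance gives about 1 in 20 such tests. The same array was among the 2 least like the rest.

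The mean deviation of the 67 canonical genes moved in opposite directions against sham in different weeks after silicon ions. In each pair of weeks below, all 3 arrays of that dose lay on one side of the sham mean in one week and on the other side in the other. This did not hold for gamma in weeks 4 and 12 or for 10 cGy Si in week 12. After 10 cGy Si it was 0.0809 in week 4 and -0.129 in week 1, a difference of 0.2097. After 30 cGy Si it was 0.120 in week 4 and -0.173 in week 1, a difference of 0.2928. It was -0.133 in week 12 and 0.120 in week 4, a difference of -0.2526. These differences were not tested on the mean deviation, and the F test of the single genes called 0 members. The sham means rest on spread arrays, from -0.170 to 0.149 in week 4 and from -0.0688 to 0.385 in week 12. The 10 cGy Si arrays of week 4 (0.0267 to 0.125) lay inside the sham range. So did the 30 cGy Si arrays of week 4 (0.0782 to 0.132) and week 12 (-0.0348 to 0.0302). The sides were not recomputed without single sham arrays.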

How the results depend on the processing

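Of the recomputed answers to comparisons, 850 moved by less than the spread between replicates (medians) or 1.5 times (counts), and 19 by more. This tally says little about small effects. The limit for medians, 0.109, was close in size to many of the medians, and many counts were 0 in every setting. The week 4 median relative to week 1 went from 0.129 to 0.0449 with white adipocytes and was still counted among the 850. With white adipocyte markers among the covariates, chosen after the data were seen, 8 members were called at week 4 and 13 at week 12 relative to week 1. With no covariates these counts were 27 and 35. With white adipocytes the week 12 median was 0.0125, and the median of 30 cGy Si against sham in week 4 was 0.00918. With tissue covariates but no white adipocytes the median of gamma against sham in week 4 was -0.0754. In that setting 34 members rose and 1 fell at week 4 relative to week 1, and 34 rose and 2 fell at week 12. Array weights called 3 members after 30 cGy Si in week 1 (Rpl12, Rpl31 and Rpl5). Between weeks 12 and 4, 1 member was called with the mean of probe sets, with array weights and with tissue covariates (Rpl7a), and 1 without the 2 arrays least like the rest (Rplp2).

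Leaving out single arrays gave 24 to 33 calls at week 4 and 30 to 40 at week 12 relative to week 1, and 0 to 1 between weeks 12 and 4 (Rplp2 without sham week 4 replicate 1, Rpl7a without sham week 12 replicate 3). It gave 0 to 1 for 30 cGy Si over the 3 weeks (Rps27, without sham week 12 replicate 3). The shares of all genes called in these refits are not given here, so stability of the members cannot be read from the counts. The week 12 medians against sham ranged from -0.251 to -0.00963 after gamma, from -0.162 to 0.0689 after 10 cGy Si and from -0.248 to -0.00253 after 30 cGy Si. The median of 10 cGy Si in week 12 thus changed sign. So did those of gamma in week 4 (-0.00436 to 0.119), 10 cGy Si over the 3 weeks (-0.0615 to 0.0152) and week 12 against week 4 (-0.0214 to 0.0324). The cause was not tested.

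The differences that changed sign were all uncalled. Rps27l against sham in week 12 ranged from -0.334 to 0.0501 after gamma, from -0.0973 to 0.241 after 10 cGy Si and from -0.0655 to 0.273 after 30 cGy Si, and over the 3 weeks after gamma from -0.0976 to 0.0305. Rpl38 after 30 cGy Si in week 4 ranged from -0.258 to 0.0153, the 0.0153 also without the 2 arrays least like the rest. Rpl3l after gamma in week 12 was -0.0706 with tissue covariates and -0.152 with white adipocytes added, and Rpl24 for 30 cGy against 10 cGy Si was -0.0224 with white adipocytes.

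With a replicate block, 26 members were called at week 4 and 37 at week 12 relative to week 1, and 0 in every other comparison, so the block changed no count by over 1.5 times. The share of all genes called with the block is not given here. Probe sets near background and near-identical copies of these genes limit single values.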
